A study of Mus musculus with 9 samples.

Results

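Control siRNA adipocytes were compared with preadipocytes of the mouse line 3T3-L1 over 18193 genes, on 6 of the 9 single-colour oligonucleotide arrays of the study, 3 arrays a group. The comparison asked how gene families and cell functions, and not only the genes of largest change, differ between the fibroblast-like cell and the fat cell made from it. Every gene with a probe set of its own was a member and was read from whichever such probe set had the greatest mean across all 9 arrays. The other 3 arrays, of adipocytes given PPAR gamma siRNA, entered no comparison, but took part in the estimate of the spread and in the means by which probe sets were chosen.

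3T3-L1 is an established line of mouse embryo fibroblasts that are committed to become adipocytes. The preadipocytes were undifferentiated cells, and how confluent they were when harvested is not stated in the labels. The adipocytes had been taken through a cocktail of 1 µM dexamethasone, 10 µg/ml insulin and 0.5 mM IBMX (a phosphodiesterase inhibitor) for 2 days, started 2 days after confluence, and then through insulin alone for a further 2 days. They were counted as mature from day 8, when at least 95% of the cells had the adipocyte shape. On day 14 they were detached, electroporated with 2 or 3 nmol of a non-targeting siRNA and plated again, and the time to harvest is not stated in the labels. Detachment, electroporation and siRNA were given to the adipocytes alone and cannot be told apart from differentiation here. The design text calls the replicates technical, so each p-value measures only the spread between these arrays.

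When a preadipocyte becomes an adipocyte it leaves the cell cycle, takes apart much of its contractile skeleton and matrix, and builds the machinery that stores, makes and releases fat. PPAR gamma and the C/EBP factors, which are transcription factors, drive that change. An adipocyte also needs many mitochondria, because the citric acid cycle supplies the citrate from which fatty acids are made and the respiratory chain pays for the work, and it listens to insulin, to cAMP-raising hormones and to metabolites through receptors on its surface.

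The 6 arrays were alike in overall level, with medians between 4.85 and 4.88 on the log2 scale, and correlated at 0.997 to 0.998 among preadipocytes, 0.994 to 0.996 among adipocytes and 0.928 to 0.930 between the groups. The Actb 3′ minus 5′ difference, a measure of RNA integrity, lay between 0.23 and 0.36 in preadipocytes and between 0.91 and 1.30 in adipocytes, while that of Gapdh overlapped, at -0.19 to 0.11 over the 6 arrays. The Actb difference moved with every result below, and its part in them was not tested beyond a fit with it as a covariate. Of 7 measured adipocyte markers 6 rose, and the leptin gene Lep was near the floor of the array in both groups. All 7 measured markers of preadipocytes and fibroblasts fell. Of the 10 macrophage markers, 2 rose (Cd68 and Adgre1), 5 stood below 5 in both groups, and their summed level went from 8.25 to 8.34 in preadipocytes to 8.48 to 8.54 in adipocytes. Of 8 endothelial markers 1 rose (Kdr) and 7 stood below 5, with a summed level of 6.79 to 6.97 in preadipocytes and 6.97 to 7.18 in adipocytes. Among the 8 muscle markers 4 rose (Des, Ckm, Myh11 and Myod1), 6 stood below 5, and the summed level went from 7.32 to 7.47 in preadipocytes to 8.79 to 8.81 in adipocytes. Of 7 epithelial markers 1 rose (Krt18), 3 stood below 5, and the summed level was 8.26 to 8.38 in preadipocytes and 8.30 to 8.53 in adipocytes. In such bulk RNA, fewer cells of a type and less RNA per cell cannot be told apart.

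Genes were called in limma's fit of the 9 arrays at a Benjamini-Hochberg adjusted p under 0.05. Of the 18193 genes, 4932 were higher in adipocytes (27.1%) and 4495 lower (24.7%), and with a difference of at least 2-fold 1607 were higher (8.83%) and 1937 lower (10.6%). The median log2 difference over all genes was 0.09. These shares are the background for each list of genes below, whose members were chosen by function. The direction of small differences went with the level of the gene. Among the 6444 genes below 5 in both groups, 17.1% were higher and 2.95% lower (median 0.13), against 32.6% and 36.6% of the other 11749 genes (median -0.01). A list with many members below 5 therefore starts from a background of small rises, and the number of such members stands beside the counts of the lists that hold many.

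**Figure D1:**
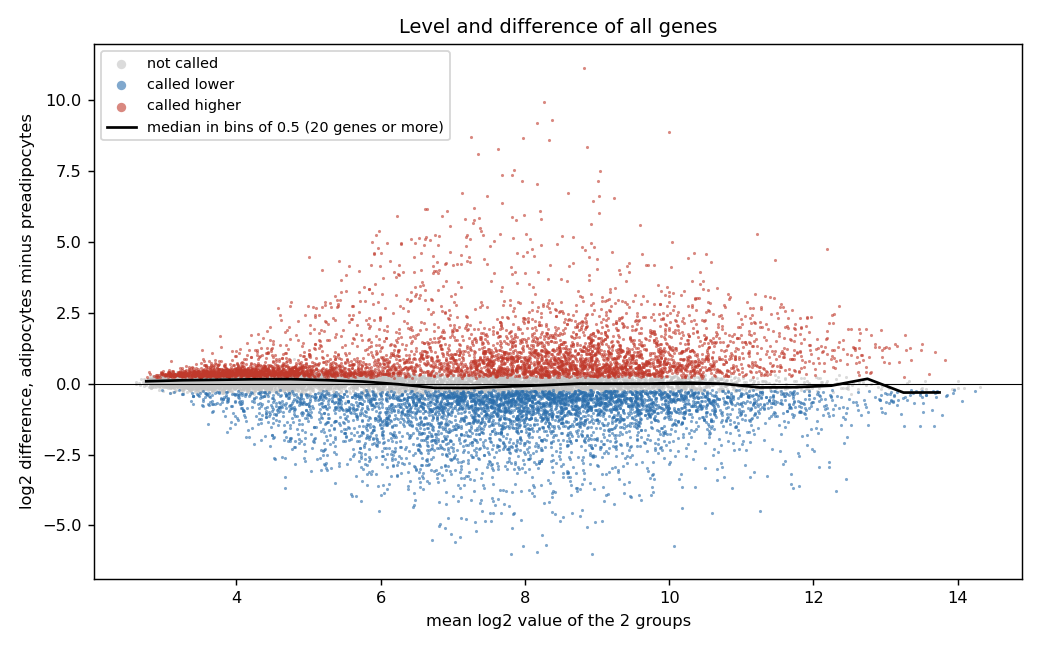
The log2 difference of each of the 18193 genes (vertical axis, adipocytes minus preadipocytes) is plotted against its mean log2 value over the 2 groups (horizontal axis), in red where called higher, blue where called lower and grey otherwise. The black line, the median in bins of 0.5 that hold at least 20 genes, lies slightly above 0 at the lowest levels, where the red points form a dense low band.

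In all, 80 lists with 2624 genes were described, 888 of them higher and 824 lower. In 23 lists most of the members were higher and in 14 most were lower. In 11 lists limma called no member lower, and 1 member of these lists was lower at an unadjusted p under 0.05. Differences are given as log2 values ± SE of the fit, and a list's median is that of its members' log2 differences. Dim probe sets are those with a mean below 6 over the 9 arrays, and fits without them are given where they change a count. Of the 299 genes named, 71 changed their value by over 1.5 times when the average over a gene's probe sets was used, 69 of them toward 0, so a value describes its probe set rather than every transcript of the gene.

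**Figure D2:**
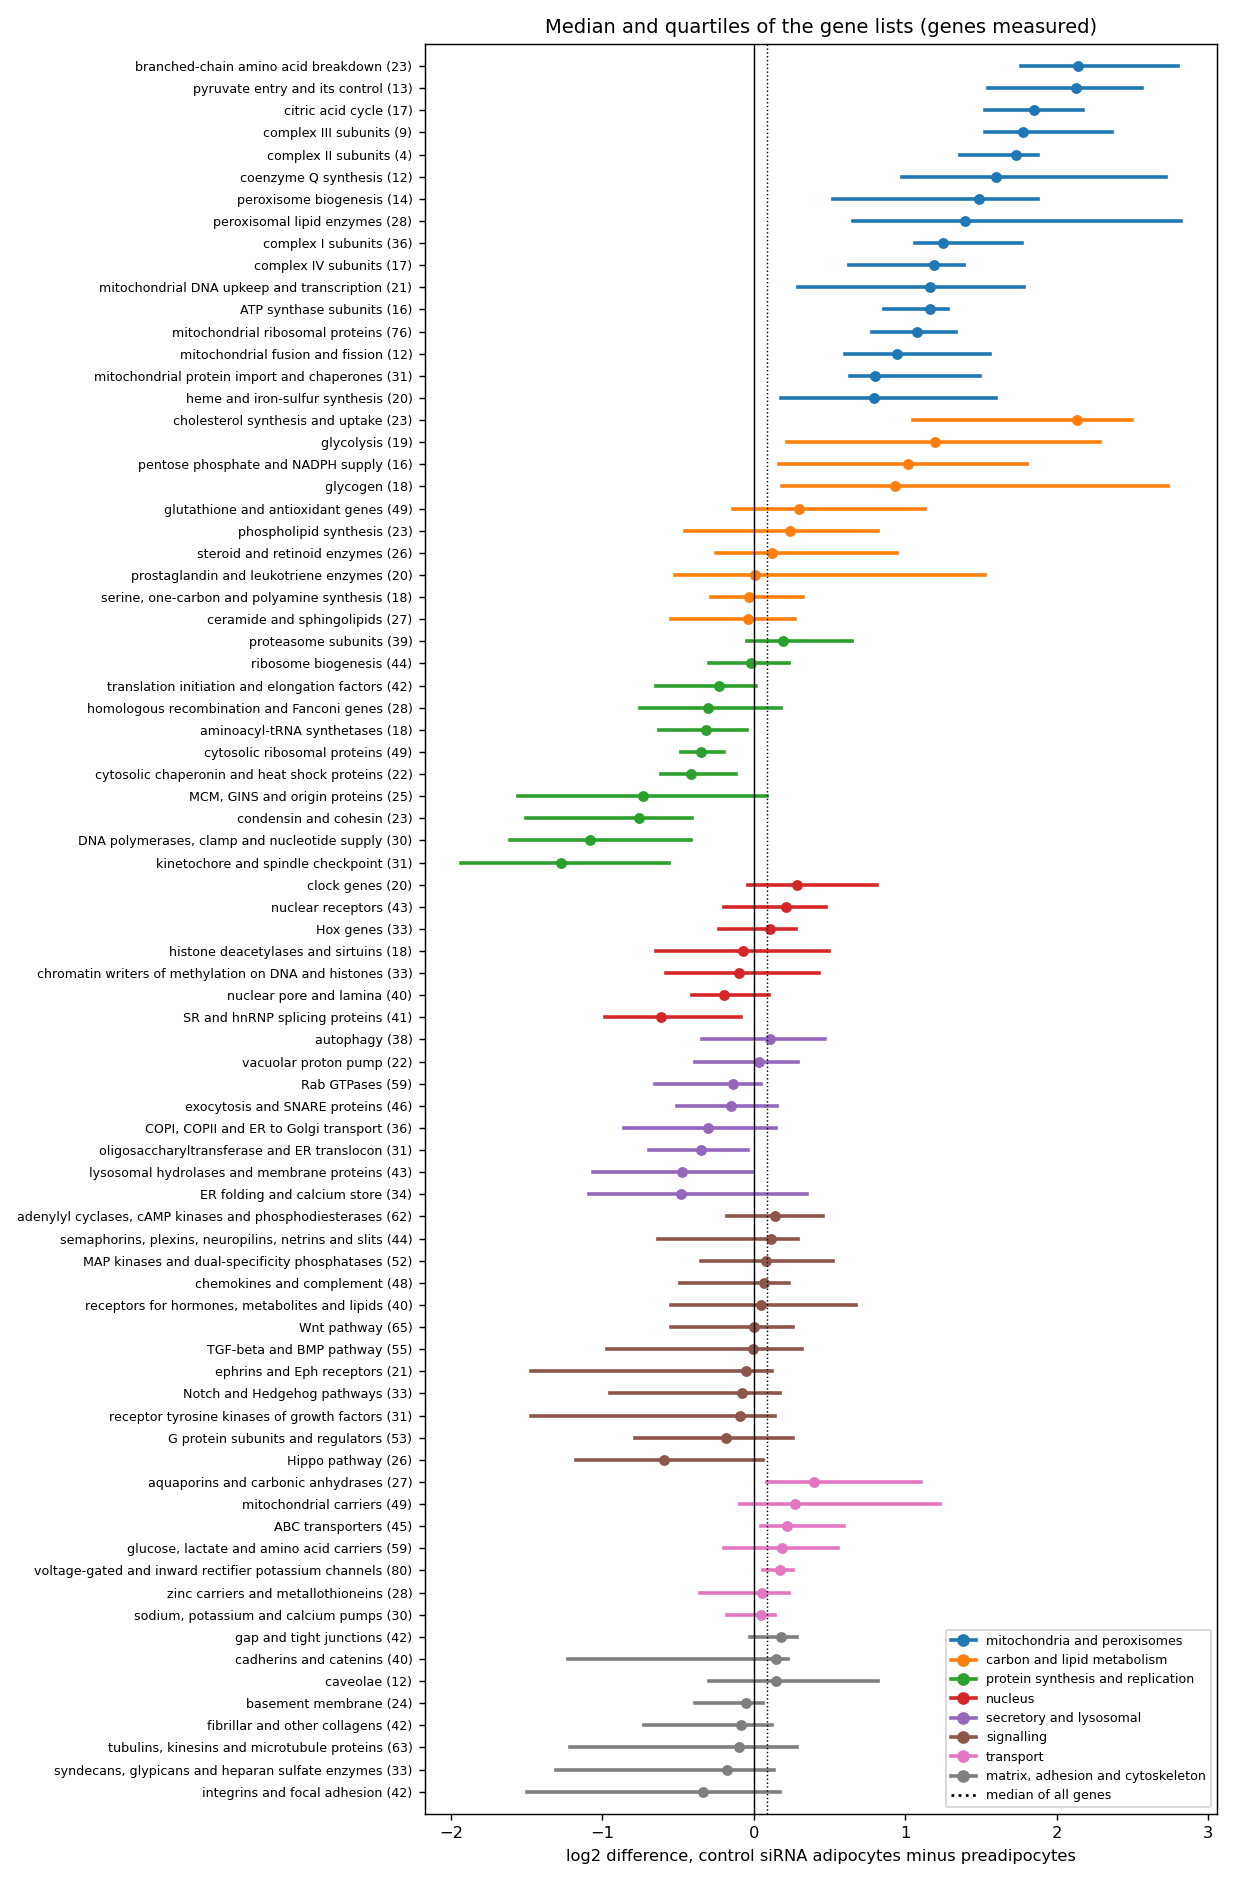
Each row is a gene list with the number of its measured genes, the point is the median of the members' log2 differences (adipocytes minus preadipocytes) and the line runs from the lower to the upper quartile. The 16 lists of mitochondrial and peroxisomal pathways lie to the right of the dotted line, the median of all genes at 0.09, with medians from 0.79 to 2.14, and the kinetochore list lies farthest to the left, at -1.28.

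Subunit genes of the 5 complexes of oxidative phosphorylation rose together. Of complex I, which takes electrons from NADH, 34 of 36 subunits were higher and none lower, with a median of 1.25 against 0.09 over all genes. Complex II, which is also succinate dehydrogenase of the citric acid cycle, had 4 of 4 higher (1.73), complex III 9 of 9 (1.77), complex IV 16 of 17 (1.19) and the ATP synthase 16 of 16 (1.16). In complex I the iron-sulfur subunit Ndufs1 rose most, by 2.77 ± 0.08. It read 9.37, 9.38 and 9.39 in preadipocytes and 12.25, 12.08 and 12.12 in adipocytes. The 3 adipocyte values lay well above the preadipocyte values. Ndufa10 rose by 2.32 ± 0.08 and Ndufs7 by 2.31 ± 0.11. In complex II the iron-sulfur subunit Sdhb rose by 1.97 ± 0.08, the flavoprotein Sdha by 1.61 ± 0.08, and the membrane anchors Sdhd by 1.85 ± 0.09 and Sdhc by 0.59 ± 0.16. In complex III the Rieske protein Uqcrfs1 rose most, by 2.59 ± 0.08, and cytochrome c1, Cyc1, rose by 2.36 ± 0.09. The smallest rise was that of Uqcrb at 1.12 ± 0.08, which stood near the top of the array's range in adipocytes. In the ATP synthase the range was narrow, from 0.45 to 1.73, with Atp5d of the rotating stalk highest at 1.73 ± 0.08 and the catalytic-head subunit Atp5a1 at 1.39 ± 0.08.

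Complex IV, cytochrome c oxidase, held the exceptions in size. Cox7a1 and Cox8b, isoforms known from heart, muscle and brown fat, rose by 5.90 ± 0.11 and 5.89 ± 0.11. Cox7a1 read 3.94, 4.06 and 3.71 in preadipocytes and 9.69, 9.91 and 9.83 in adipocytes (adjusted p = 6.34e-12). Cox8b read 4.81, 5.05 and 4.76 in preadipocytes and 10.66, 10.73 and 10.90 in adipocytes (adjusted p = 6.16e-12). Both thus went from group means below 5 to levels of the upper part of the array's range, with no overlap between groups. Their partners of wide expression, Cox7a2 and Cox8a, rose by 1.27 ± 0.08 and 1.45 ± 0.08, close to the rest of the complex. Of 8 muscle markers 4 also rose, as given above, and their part in these values was not tested.

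The promoters of these genes were searched for 9 short motifs on both strands, in windows from 250 bases before to 50 after the start, as RefSeq gives them for the build GRCm38.p6. Of the 18193 genes, 14452 had 18109 such windows. The core of the site of NRF1 (a transcription factor known for nuclear genes of the respiratory chain), GCATGCGC, stood in 12.5% of the 72 windows of respiratory chain and ATP synthase genes and in 8 of the 73 windows of mitochondrial ribosomal genes. Its share was 4.0% over all windows and 3.9% over the 51 of cytosolic ribosomal genes. Among the other lists searched, it stood in 4 of 25 windows of MCM, GINS and origin genes, most of which were lower. The core stood in 3 of 20 windows of the citric acid cycle, 3 of 25 of cholesterol genes and 2 of 25 of clock genes. For the kinetochore list it was 1 of 32, and for condensin and cohesin 0 of 19. A share above that of all windows was therefore not limited to lists that rose. The core of the ETS site, CCGGAAG, stood in 23.6% of the first set, 34.2% of the second and 41.2% of the cytosolic ribosomal windows, and in 2355 of all 18109. Also searched were the E-box CACGTG (8.7% of all windows), the GC box GGGCGG (52.3%), the TATA box TATAAA (9.8%), and the DR1 and sterol elements, which stood in 7 and 11 of all windows. The motifs do not contain one another, though their matches may lie over each other. Such a match is a description of letters and not evidence of binding. The 250 bases before the start of Sdhb and of Ndufa8, a complex I subunit that rose by 1.51 ± 0.08 and was chosen after its values were seen, are shown because each holds the NRF1 core, set in capitals. Sdhb too was chosen for its match after its values were seen. The strand is plus for Sdhb and minus for Ndufa8.
Sdhb, chr4:140961021-140961270: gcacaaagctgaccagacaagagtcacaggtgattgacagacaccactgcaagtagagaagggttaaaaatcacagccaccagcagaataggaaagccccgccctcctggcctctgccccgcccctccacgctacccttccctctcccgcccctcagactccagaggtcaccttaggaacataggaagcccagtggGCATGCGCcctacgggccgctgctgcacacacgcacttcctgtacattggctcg
Ndufa8, chr2:36049339-36049588: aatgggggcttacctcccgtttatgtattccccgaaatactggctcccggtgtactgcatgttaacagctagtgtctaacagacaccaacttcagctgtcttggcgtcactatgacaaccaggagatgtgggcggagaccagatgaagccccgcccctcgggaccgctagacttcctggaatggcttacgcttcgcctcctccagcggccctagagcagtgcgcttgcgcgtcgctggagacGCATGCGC
The core lies 54 to 47 bases before the start of Sdhb and 8 to 1 bases before that of Ndufa8.

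**Figure D3:**
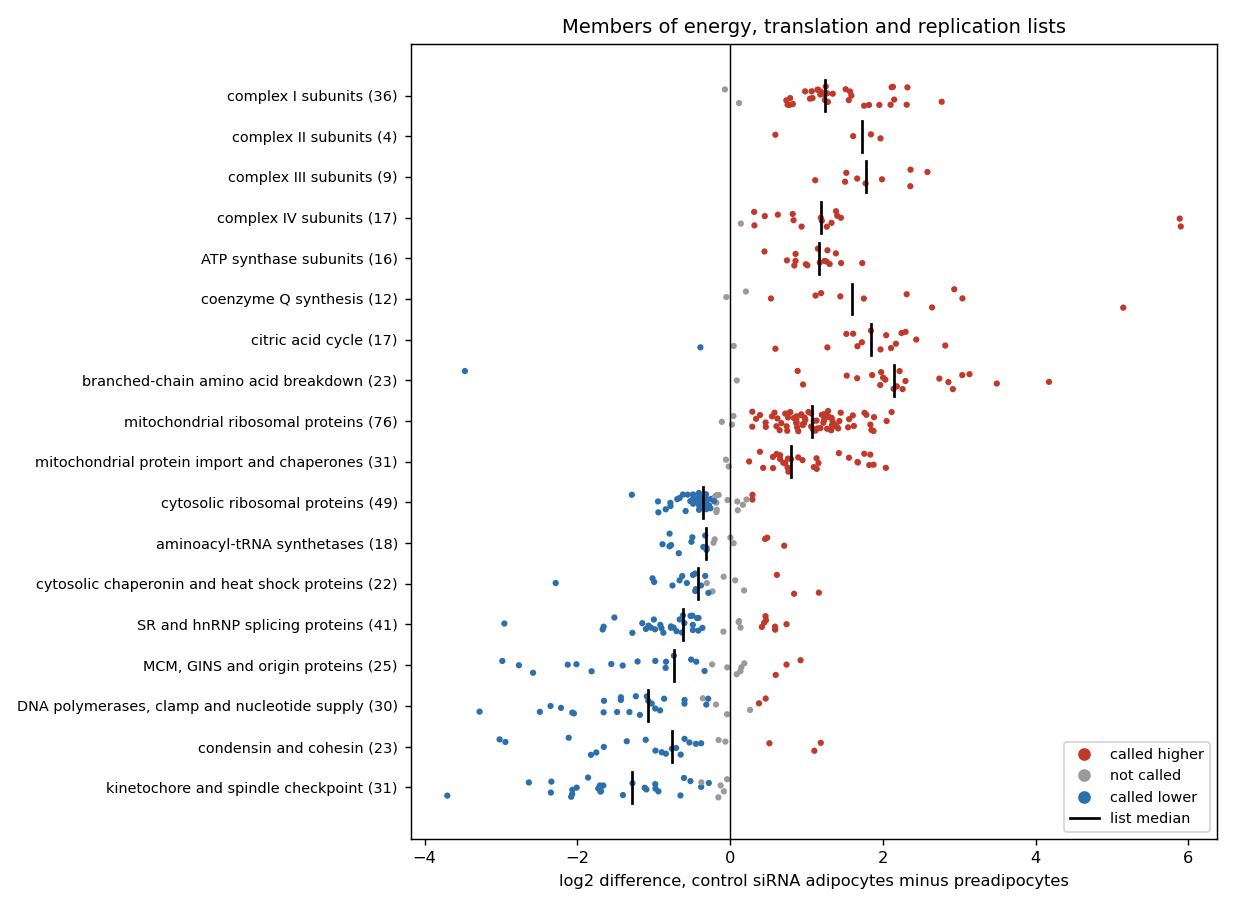
Each point is a gene, placed by its log2 difference (adipocytes minus preadipocytes), in red where called higher, blue where called lower and grey otherwise. The black bars are list medians, from 2.14 for branched-chain amino acid breakdown to -1.28 for kinetochore and spindle checkpoint, and Cox7a1 and Cox8b stand alone at the right of complex IV.

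Genes of fuel supply to the chain rose with it. In the citric acid cycle 15 of 17 genes were higher, with a median of 1.85, led by Idh3a of the NAD-linked isocitrate dehydrogenase (2.82 ± 0.09), citrate synthase, Cs (2.44 ± 0.08), and fumarase, Fh1 (2.30 ± 0.08). The NADP-linked Idh2 was the exception and was lower, at -0.39 ± 0.08, a call lost with the Actb difference as a covariate, as was that of Sdhc. Of the genes for pyruvate entry, 11 of 13 were higher (median 2.13). Pcx, the pyruvate carboxylase that refills oxaloacetate, read 8.46, 8.43 and 8.42 in preadipocytes and 12.76, 12.76 and 12.64 in adipocytes, a rise of 4.29 ± 0.10 with no overlap. Pdhx and Pdhb of the pyruvate dehydrogenase complex rose by 2.92 ± 0.09 and 2.69 ± 0.09. The phosphatase Pdp1, which switches that complex on, fell, at -2.07 ± 0.12. In branched-chain amino acid breakdown 21 of 23 genes were higher (median 2.14), among them Dbt, the core of the branched-chain keto acid dehydrogenase (4.18 ± 0.15), and Aldh6a1 of valine breakdown (3.49 ± 0.12). Its single fall was that of the cytosolic aminotransferase Bcat1, at -3.47 ± 0.14.

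Most genes that build and maintain mitochondria rose as well. Coenzyme Q synthesis, which makes the electron carrier between the complexes, had 10 of 12 genes higher (median 1.60). The kinase-like Coq8a of that pathway read 5.23, 5.33 and 5.23 in preadipocytes and 10.51, 10.42 and 10.28 in adipocytes. It rose by 5.15 ± 0.09, ahead of the methyltransferases Coq3 (3.04 ± 0.10) and Coq5 (2.94 ± 0.08). Protein import had 29 of 31 higher (median 0.80), with the co-chaperone Grpel1 at 2.04 ± 0.09 and the intermembrane chaperone Timm10 at 1.88 ± 0.09. Fusion and fission had 10 of 12 higher, led by the fission protein Mtfp1 (2.50 ± 0.08). Of the genes for mitochondrial DNA and transcription, 16 of 21 were higher and 1 lower. Its coactivators parted: Ppargc1b rose by 4.65 ± 0.08 and Ppargc1a by 2.73 ± 0.23, while Pprc1, the related coactivator of growing cells, was lower, at -0.97 ± 0.10. Ppargc1b read 5.65, 5.84 and 5.64 in preadipocytes and 10.32, 10.40 and 10.35 in adipocytes, and the groups did not overlap. Heme and iron-sulfur synthesis had 14 of 20 higher and 3 lower. Alas1, the first enzyme of heme synthesis, rose by 2.81 ± 0.08, and mitoferrin 1, Slc25a37, which brings iron into mitochondria, was lower, at -1.38 ± 0.13.

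Most genes of mitochondrial and of cytosolic ribosomal proteins moved in opposite directions. Of the 76 mitochondrial ribosomal proteins 73 were higher and none lower (median 1.07), with Mrpl55 at 2.12 ± 0.10, Mrpl12 at 2.05 ± 0.12 and Mrpl46 at 1.89 ± 0.09. Mrpl12 read 9.36, 9.05 and 8.86 in preadipocytes and 11.08, 11.11 and 11.23 in adipocytes, again without overlap. Of the 49 cytosolic ribosomal proteins with a probe set of their own, 2 were higher and 36 lower, against 24.7% of all genes, and the falls were small (median -0.35). Rpl12 was lowest, at -1.29 ± 0.15, followed by Rpl14 (-0.94 ± 0.09) and Rps25 (-0.94 ± 0.09). Rpl12 read 7.64, 7.62 and 7.78 in preadipocytes and 6.66, 6.53 and 5.99 in adipocytes. With the Actb difference as a covariate 20 of the 49 were lower. Ribosomal protein genes have many near-identical pseudogenes, so their probe sets can share signal, and without the probe sets of types x and s 32 of 44 were lower.

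Among synthetases, translation factors and cytosolic chaperones more genes fell than rose. Of 18 cytosolic aminoacyl-tRNA synthetases, 11 were lower and 3 higher, with Nars at -0.88 ± 0.09 and Vars at -0.79 ± 0.15. Of 42 initiation and elongation factors, 20 were lower, led by Eif5a2 (-2.60 ± 0.12), while 9 were higher. Among the latter was Eif4ebp1 (1.16 ± 0.13), the insulin-regulated brake on cap-dependent initiation. The elongation factor Eef2, which moves the ribosome along the message, was at -0.99 ± 0.10. In ribosome biogenesis 8 of 44 were higher and 12 lower, with the nucleolar proteins Nop58 (-1.68 ± 0.16) and Npm1 (-1.23 ± 0.10) lower and Myc, a driver of ribosome production, higher at 0.92 ± 0.16 (0.59 and not called with the Actb difference as a covariate). Cytosolic chaperones had 14 of 22 lower, among them the small heat shock protein Cryab (-2.28 ± 0.14) and Hsp90aa1 (-0.99 ± 0.08), and 3 higher, among them Hspb8 (1.16 ± 0.11). The proteasome went the other way, with 17 of 39 subunits higher and 4 lower (median 0.19). The ring subunit Psma1 rose by 2.00 ± 0.08, and the immunoproteasome subunits Psmb8 and Psmb9, which trim peptides for antigen presentation, by 1.39 ± 0.12 and 1.16 ± 0.12.

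Peroxisomes shorten very long fatty acids and make ether lipids, and most of their genes rose, as did most of those of mitochondria. Of the biogenesis genes 11 of 14 were higher and none lower (median 1.49). Pex11a, which divides peroxisomes, read 6.39, 6.32 and 6.47 in preadipocytes and 11.18, 11.19 and 11.21 in adipocytes, a rise of 4.80 ± 0.11 (adjusted p = 2.7e-11). Every adipocyte array lay above every preadipocyte array. Of the lipid enzymes 23 of 28 were higher, with the very-long-chain transporter Abcd2 at 5.29 ± 0.15, the thiolase Acaa1b at 4.13 ± 0.11 and the membrane protein Pxmp2 at 3.42 ± 0.12. The 2 that were lower, Far1 (-0.98 ± 0.12) and Agps (-0.56 ± 0.12), both act in ether lipid synthesis.

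Carbohydrate pathway genes rose in most steps. In glycolysis 12 of 19 genes were higher and 3 lower (median 1.2). Pfkfb3, whose product makes the activator of phosphofructokinase, rose by 3.61 ± 0.12, hexokinase 2 (Hk2) by 3.19 ± 0.20 and Pfkp by 2.74 ± 0.15. The muscle enolase Eno3 read 8.94, 8.86 and 8.77 in preadipocytes and 6.57, 6.25 and 5.58 in adipocytes and fell, at -2.72 ± 0.19. In the pentose phosphate pathway and the supply of NADPH, the reductant of fat synthesis, 11 of 16 were higher, led by the folate enzyme Aldh1l1 (3.95 ± 0.14), transaldolase, Taldo1 (3.15 ± 0.10), and malic enzyme Me1 (2.60 ± 0.12). The mitochondrial transhydrogenase Nnt was lower, at -1.56 ± 0.11. Glycogen genes had 12 of 18 higher, covering both its making and its use: the branching enzyme Gbe1 rose by 4.52 ± 0.21, the phosphorylase Pygl by 4.0 ± 0.08 and the glycogen-binding Stbd1 by 3.66 ± 0.35. Gbe1 read 5.95, 5.74 and 5.44 in preadipocytes and 10.18, 10.36 and 10.13 in adipocytes. In this gene too the groups did not overlap. The 3 that were lower, Pgm2, Phkb and Phkg2, changed by less than 2-fold, and the call of Phkg2 was lost with the Actb difference as a covariate.

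Cholesterol synthesis and uptake rose, with 20 of 23 genes higher and a median of 2.13. The sterol reductase Tm7sf2 rose by 3.15 ± 0.15, squalene synthase, Fdft1, by 3.02 ± 0.15 and phosphomevalonate kinase, Pmvk, by 2.94 ± 0.11. Fdft1 read 9.16, 8.86 and 8.53 in preadipocytes and 11.99, 11.65 and 11.97 in adipocytes. The sensor Scap, which escorts the sterol-regulated factors, was lower, at -0.95 ± 0.10. With the average over a gene's probe sets the median was 1.47.

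Other lipid classes divided within the list. In phospholipid synthesis 11 of 23 genes were higher and 7 lower: Pemt, which methylates phosphatidylethanolamine to phosphatidylcholine, rose by 3.43 ± 0.09, the cholinephosphotransferase Chpt1 by 2.99 ± 0.09 and the ethanolamine enzyme Pcyt2 by 2.14 ± 0.11. Pcyt1b, the minor form of the rate-limiting choline enzyme, was lower, at -2.50 ± 0.14, and so was the lysophospholipid acyltransferase Lpcat2 (-2.40 ± 0.14). In ceramide and sphingolipid metabolism 7 of 27 were higher and 9 lower. Ceramide synthase 4, Cers4, rose by 2.26 ± 0.08, whereas Ugcg, which makes glucosylceramide, read 9.01, 9.27 and 9.15 in preadipocytes and 6.39, 5.98 and 5.98 in adipocytes and fell, at -3.03 ± 0.15. Sphk1, the kinase that makes sphingosine 1-phosphate, was at -2.37 ± 0.13. In prostaglandin and leukotriene metabolism 7 of 20 were higher and 6 lower, and 7 stood below 5 in both groups. The adipocyte phospholipase Plaat3 rose by 4.60 ± 0.08 and leukotriene C4 synthase, Ltc4s, by 4.14 ± 0.12, while the cytosolic phospholipase Pla2g4a was lower, at -1.60 ± 0.16. Among steroid and retinoid enzymes 11 of 26 were higher and 6 lower, and 10 stood below 5 in both groups. Hsd11b1, which regenerates active glucocorticoid, read 5.75, 5.58 and 5.85 in preadipocytes and 12.23, 12.16 and 12.12 in adipocytes, a rise of 6.45 ± 0.13. Dhrs3 and Retsat, both retinol enzymes, rose by 3.67 ± 0.11 and 3.02 ± 0.09, and the retinol dehydrogenase Rdh10 was lower, at -1.40 ± 0.10.

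Antioxidant genes were mixed, with more rises than falls. Of 49, 25 were higher and 8 lower. The glutathione transferases Gstz1, Mgst2 and Gstk1 rose by 3.92 ± 0.11, 3.89 ± 0.12 and 2.57 ± 0.08. The peroxidases Gpx7 and Gpx8, which sit in the endoplasmic reticulum, were lower, at -2.01 ± 0.12 and -1.95 ± 0.12, as was the quinone reductase Nqo1 (-2.00 ± 0.19). Serine, one-carbon and polyamine synthesis had 5 of 18 higher and 4 lower, none by 2-fold. With the Actb difference as a covariate 2 of its 18 members were higher.

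Genes of DNA replication and mitosis fell, beyond the cyclins and kinases usually followed. The kinetochore and spindle checkpoint list had 26 of 31 lower and none higher, also at an unadjusted p under 0.05 in limma, with a median of -1.28. The checkpoint kinase Bub1 was lowest, at -3.70 ± 0.30, followed by the centromere protein Cenpi (-2.63 ± 0.19) and Bub1b (-2.35 ± 0.12). Cenpi read 7.18, 6.94 and 7.01 in preadipocytes and 4.65, 3.91 and 4.67 in adipocytes, without overlap. Without dim probe sets 18 members were left, 14 of them lower. DNA polymerases, the sliding clamp and nucleotide supply had 24 of 30 lower (median -1.08). The S-phase ribonucleotide reductase subunit Rrm2 read 9.35, 9.23 and 8.97 in preadipocytes and 6.23, 5.12 and 6.37 in adipocytes and fell, at -3.28 ± 0.31. Its paralogue Rrm2b, which supplies nucleotides outside S phase, rose by 0.47 ± 0.11, a call lost with the Actb difference as a covariate. Of the MCM helicase, GINS and origin proteins 16 of 25 were lower. The helicase subunits Mcm5 and Mcm6 were at -2.76 ± 0.26 and -2.58 ± 0.15, whereas the origin recognition subunits Orc5, Orc3 and Orc2 were higher, at 0.92 ± 0.10, 0.74 ± 0.07 and 0.60 ± 0.10.

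Condensin and cohesin, the rings that fold and hold chromosomes, had 18 of 23 genes lower and 3 higher. The condensin subunits Smc2 and Ncapg and the cohesin acetyltransferase Esco2 were lowest, at -3.02 ± 0.19, -2.94 ± 0.19 and -2.11 ± 0.16. Smc2 read 8.90, 8.81 and 8.77 in preadipocytes and 5.90, 5.61 and 5.93 in adipocytes (adjusted p = 1.05e-07). Ncapg read 7.63, 7.69 and 7.37 in preadipocytes and 5.09, 4.34 and 4.44 in adipocytes (adjusted p = 1.17e-07). In both genes the 3 adipocyte arrays lay below the 3 preadipocyte arrays. The cohesin release factor Wapl rose, by 1.10 ± 0.08. Homologous recombination and Fanconi genes were mixed, with 14 of 28 lower and 7 higher. Rad51b was at -2.13 ± 0.11 and Rad51ap1 at -1.96 ± 0.22, while their relatives Xrcc3 and Rad51d were at 1.94 ± 0.13 and 1.49 ± 0.14. With the Actb difference as a covariate 7 of the 28 were lower, and without dim probe sets 6 of 15.

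Promoter windows of the mitotic lists held CHR, the element TTTGAA of cell cycle genes, in 37.5% of 32 windows for the kinetochore list and 42.1% of 19 for condensin and cohesin, against 13.4% of all windows. The CCAAT box stood in 68.8% of kinetochore windows, 42.1% of those of condensin and cohesin and 37.4% of all. Its share for condensin and cohesin thus lay near that of all windows. Nor was the box particular to mitotic lists. It stood in 18 of 25 windows of cholesterol genes, 14 of 20 of the citric acid cycle and 15 of 25 of clock genes, lists with most members higher. In MCM, GINS and origin genes it stood in 16 of 25, and in respiratory chain and ATP synthase genes in 29 of 72. The sequences before the starts of Smc2 and Ncapg, both on the plus strand, hold both elements on one or the other strand, in capitals, and are shown for that reason, chosen after their values were seen.
Smc2, chr4:52438971-52439220: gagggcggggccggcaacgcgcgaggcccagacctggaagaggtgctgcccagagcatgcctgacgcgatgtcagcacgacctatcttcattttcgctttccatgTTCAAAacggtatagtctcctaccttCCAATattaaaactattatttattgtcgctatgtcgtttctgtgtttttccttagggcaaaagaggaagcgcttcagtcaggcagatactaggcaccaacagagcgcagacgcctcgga
Ncapg, chr5:45669675-45669924: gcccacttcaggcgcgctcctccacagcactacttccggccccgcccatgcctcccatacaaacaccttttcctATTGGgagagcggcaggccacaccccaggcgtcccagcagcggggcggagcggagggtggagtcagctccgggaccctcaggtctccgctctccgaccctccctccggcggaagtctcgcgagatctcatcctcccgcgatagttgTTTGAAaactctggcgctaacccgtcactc
In Smc2 the CHR lies 145 to 140 bases and the CCAAT box 119 to 115 bases before the start, and in Ncapg 30 to 25 and 176 to 172 bases.

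In the nucleus, RNA-binding proteins of splicing fell. Of 41 SR and hnRNP proteins, 30 were lower and 7 higher (median -0.62). Hnrnpab read 13.59, 13.54 and 13.55 in preadipocytes and 9.04, 11.55 and 11.22 in adipocytes, with no overlap, and fell, at -2.95 ± 0.59, but its difference was -0.53 and not called with the Actb difference as a covariate, and -0.82 with the average over its probe sets. Hnrnpl was at -1.67 ± 0.29 and the splicing repressor Ptbp2 at -1.65 ± 0.10. Among writers of methylation on DNA and histones 9 of 33 were higher and 12 lower. The maintenance methyltransferase Dnmt1 and its partner Uhrf1, which copy DNA methylation at replication, were lower, at -2.43 ± 0.20 and -2.93 ± 0.25, and the histone methyltransferase Dot1l rose by 1.56 ± 0.15. Deacetylases and sirtuins were mixed, with 5 of 18 higher and 7 lower. The mitochondrial sirtuins Sirt3 and Sirt5 rose by 2.16 ± 0.10 and 1.14 ± 0.13, Hdac9 rose by 2.68 ± 0.16, and Hdac7 and Hdac11 were lower, at -2.21 ± 0.12 and -1.99 ± 0.14. Of the nuclear pore and lamina 18 of 40 were lower and 7 higher, with lamin A/C, Lmna, at -2.00 ± 0.13 and the linker Syne2 at 1.69 ± 0.21.

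Nuclear receptors, factors switched by small lipids and hormones, had 13 of 43 higher and 9 lower, with 15 below 5 in both groups. Pparg read 8.35, 8.20 and 8.12 in preadipocytes and 12.89, 12.82 and 12.65 in adipocytes and rose by 4.57 ± 0.09, the liver X receptor Nr1h3 by 4.30 ± 0.08 and Rxrg by 2.50 ± 0.11. The COUP factors Nr2f1 and Nr2f2, orphan receptors of development, were lower, at -2.72 ± 0.11 and -2.01 ± 0.17. Most Hox genes, which record body position, were not called: 6 of 33 were higher, 5 lower, and 18 stood below 5 in both groups. Hoxa4 read 5.50, 5.38 and 5.51 in preadipocytes and 7.81, 7.64 and 7.50 in adipocytes (a rise of 2.19 ± 0.15). Hoxa2, of the same cluster, read 7.36, 7.43 and 7.61 in preadipocytes and 5.37, 5.17 and 5.20 in adipocytes (-2.22 ± 0.16). These were the only Hox changes above 2-fold besides Hoxc13, at -1.35 ± 0.15. Without dim probe sets 3 of 11 were higher, and with the Actb difference as a covariate 3 of 33. Of the clock genes 11 of 20 were higher and none lower in limma (1 at an unadjusted p under 0.05), led by the repressor Cry2 (1.56 ± 0.11), Nfil3 (1.44 ± 0.14) and Bhlhe40 (1.27 ± 0.09). The labels do not state the hour of harvest, and with the Actb difference as a covariate 6 of the 20 were higher.

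Genes of the secretory route were lower in most of the members that were called. Of the oligosaccharyltransferase and translocon genes, which bring proteins into the endoplasmic reticulum and glycosylate them, 17 of 31 were lower and 4 higher, with Ddost at -1.34 ± 0.11 and Ostc at -1.02 ± 0.10. Folding and calcium store genes had 18 of 34 lower and 10 higher. Serpinh1, the collagen chaperone, was at -2.32 ± 0.11, and the prolyl hydroxylase P4ha3 at -1.91 ± 0.13. Serpinh1 read 13.19, 13.16 and 13.07 in preadipocytes and 10.58, 11.01 and 10.88 in adipocytes. The oxidase Ero1a, known in adipocytes for the assembly of adiponectin, rose by 2.39 ± 0.24, and read 9.91, 9.81 and 9.85 in preadipocytes and 12.12, 12.36 and 12.25 in adipocytes. In both genes the groups lay apart, in opposite directions. In COPI and COPII transport 18 of 36 were lower, 6 by at least 2-fold, led by Sec24d (-2.07 ± 0.11) and the retrieval receptor Kdelr3 (-1.73 ± 0.15), and the 8 that were higher changed by less than 2-fold. Exocytosis and SNARE genes had 18 of 46 lower and 9 higher, with Sytl2 at -2.79 ± 0.12 and Stx3 at -2.62 ± 0.09. Of 59 Rab GTPases 26 were lower and 7 higher, and Rab3d, a Rab of regulated secretion, was the only member to rise by at least 2-fold (2.21 ± 0.08). It read 7.04, 6.91 and 6.88 in preadipocytes and 9.10, 9.19 and 9.16 in adipocytes.

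Most lysosomal hydrolases fell, and the proton pump of lysosomes was mixed. Of 43 hydrolases and membrane proteins 27 were lower and 8 higher (median -0.47). The collagen-degrading cathepsin Ctsk was at -2.65 ± 0.09 and the glucuronidase Gusb at -2.07 ± 0.16, while the ganglioside activator Gm2a rose by 3.31 ± 0.09. Ctsk read 9.59, 9.59 and 9.50 in preadipocytes and 6.95, 6.76 and 7.02 in adipocytes. The vacuolar proton pump had 7 of 22 higher and 6 lower, and Atp6v0e2 was its only member to change by 2-fold, at 1.84 ± 0.12. Without dim probe sets 4 of 16 were higher. Of 38 autophagy genes 13 were higher and 10 lower. Bnip3, a receptor for removal of mitochondria, rose by 4.36 ± 0.15 and read 9.26, 9.29 and 9.33 in preadipocytes and 13.57, 13.69 and 13.69 in adipocytes. The ubiquitin-like Gabarap and the early-acting Wipi1 were lower, at -1.46 ± 0.08 and -1.49 ± 0.12.

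Receptors for metabolites and lipid mediators held large rises and large falls. Of 40 measured receptors 14 were higher, 13 lower and 13 not called. Counted apart from the calls, 13 stood below 5 in both groups. Hcar2, the receptor for ketone bodies and niacin that restrains lipolysis, read 4.06, 4.58 and 4.15 in preadipocytes and 10.12, 10.00 and 10.07 in adipocytes and rose by 5.80 ± 0.13 (adjusted p = 2.63e-11). Ffar2, a receptor for short-chain fatty acids, read 4.42, 4.25 and 4.66 in preadipocytes and 10.24, 10.02 and 10.05 in adipocytes and rose by 5.66 ± 0.13. Sucnr1, the succinate receptor, read 3.32, 3.34 and 3.20 in preadipocytes and 8.66, 8.50 and 8.81 in adipocytes and rose by 5.37 ± 0.10. These 3 went from the lowest part of the array's range to its middle or upper part. S1pr2 and Lpar1, receptors for the lysolipids sphingosine 1-phosphate and lysophosphatidic acid, fell, at -3.97 ± 0.14 and -3.81 ± 0.18. S1pr2 read 10.12, 10.16 and 10.05 in preadipocytes and 6.45, 5.91 and 6.06 in adipocytes. Lpar1 read 10.29, 10.34 and 10.33 in preadipocytes and 6.73, 6.04 and 6.77 in adipocytes. The neuropeptide Y receptor Npy1r was at -3.55 ± 0.20. In each of these the adipocyte arrays lay below the preadipocyte arrays. Without dim probe sets 19 receptors were left, 8 of them higher.

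Downstream of the receptors, more genes of cAMP signalling rose than fell, and more G protein genes fell than rose. Of 62 cyclases, kinases, anchors and phosphodiesterases 23 were higher and 12 lower, with 22 below 5 in both groups. Pde3b, the phosphodiesterase through which insulin lowers cAMP, read 8.45, 8.54 and 8.55 in preadipocytes and 12.05, 12.16 and 12.12 in adipocytes and rose by 3.60 ± 0.08. The kinase regulatory subunit Prkar2b rose by 2.10 ± 0.10 and the mitochondrial anchor Akap1 by 1.67 ± 0.10. The kinase inhibitor Pkia was lower, at -2.98 ± 0.13. G protein subunits and regulators had 24 of 53 lower and 10 higher, and 18 stood below 5 in both groups. The regulators Rgs2 and Rgs17 rose by 3.38 ± 0.09 and 3.31 ± 0.13, and the inhibitory subunit Gnai2 was lower, at -2.14 ± 0.15. Rgs2 read 8.98, 8.99 and 8.97 in preadipocytes and 12.22, 12.37 and 12.48 in adipocytes, and Gnai2 read 11.99, 12.16 and 12.11 in preadipocytes and 10.14, 9.99 and 9.71 in adipocytes, each without overlap.

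Receptor tyrosine kinases and Eph genes were lower in most of the members called, and semaphorins were mixed. Of 31 receptor tyrosine kinases 13 were lower and 4 higher, and 8 stood below 5 in both groups. Ror1, Axl and Pdgfra were at -3.92 ± 0.15, -3.20 ± 0.10 and -3.18 ± 0.11, while Met and the insulin receptor, Insr, rose by 1.78 ± 0.12 and 1.59 ± 0.19. Ror1 read 7.95, 8.06 and 7.88 in preadipocytes and 3.86, 4.12 and 4.14 in adipocytes. Of 21 ephrins and Eph receptors, which signal on contact between cells, 10 were lower and 2 higher, with 8 below 5 in both groups, and all 9 changes of at least 2-fold were falls, with the ligand Efnb2 at -3.56 ± 0.13 and the receptors Ephb3 and Ephb4 at -2.08 ± 0.08 and -2.06 ± 0.12. Efnb2 read 8.84, 9.05 and 8.90 in preadipocytes and 5.64, 5.28 and 5.20 in adipocytes. Semaphorins, plexins, netrins and slits had 14 of 44 higher and 15 lower. The secreted Sema3g read 4.28, 4.21 and 4.04 in preadipocytes and 9.71, 9.87 and 9.65 in adipocytes and rose by 5.57 ± 0.11, while Slit2 read 9.89, 9.80 and 9.78 in preadipocytes and 5.84, 5.10 and 5.81 in adipocytes and fell, at -4.24 ± 0.17. Both are secreted guidance cues, and both lay apart between the groups.

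Developmental pathways held both rises and falls. In the TGF-beta and BMP pathway 14 of 55 were higher and 21 lower. The ligand Gdf5 read 3.71, 3.91 and 3.88 in preadipocytes and 8.95, 8.62 and 8.64 in adipocytes and rose by 4.91 ± 0.10, and the inhibin subunit Inhbb rose by 2.27 ± 0.13. The secreted inhibitors Fst and Grem1 were lower, at -5.34 ± 0.24 and -3.67 ± 0.23, as was the ligand Tgfb3 (-3.99 ± 0.17). In the Wnt pathway 12 of 65 were higher and 18 lower, and 23 stood below 5 in both groups. Its receptors divided: Fzd3 and Fzd4 rose by 3.03 ± 0.14 and 2.20 ± 0.14, and Fzd2 fell, at -2.82 ± 0.17. The ligand Wnt4 was at -2.79 ± 0.15. Neither Fzd2 nor Wnt4 was the largest fall of the list, whose lowest member was at -5.73. The Hippo pathway, which couples cell shape and contact to growth, had 15 of 26 lower and 4 higher (median -0.60). The TEAD cofactor Vgll3 read 10.84, 10.97 and 10.96 in preadipocytes and 6.63, 6.12 and 6.40 in adipocytes and fell, at -4.54 ± 0.15 (adjusted p = 3.36e-10). The scaffold Amot was at -4.14 ± 0.13 and the giant cadherin Fat4 at -3.89 ± 0.26, while Vgll4, a TEAD cofactor that opposes growth, rose by 1.17 ± 0.20 (0.60 and not called with the Actb difference as a covariate). In Notch and Hedgehog signalling 15 of 33 were lower and 6 higher, and 9 stood below 5 in both groups. The Hedgehog factors Gli2 and Gli3 were at -2.23 ± 0.12 and -1.81 ± 0.16, and the Fringe enzymes Lfng, Mfng and Rfng, which modify Notch, rose by 1.68 ± 0.19, 1.56 ± 0.11 and 0.78 ± 0.10.

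MAP kinase genes and their brakes were mixed, 18 of 52 higher and 15 lower. The phosphatases Dusp4 and Dusp16 rose by 2.97 ± 0.19 and 1.65 ± 0.11, whereas Dusp7 and the ERK inhibitor Spry1 were lower, at -2.31 ± 0.15 and -1.81 ± 0.09. Chemokine and complement genes had 8 of 48 higher and 13 lower, with 21 below 5. The neutrophil chemokine Cxcl5 and the monocyte chemokine Ccl7 were at -5.42 ± 0.17 and -2.57 ± 0.12, and complement factor B, Cfb, rose by 1.32 ± 0.10.

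Carriers and channels of the cell surface changed in a few members by large amounts. Of the aquaporins and carbonic anhydrases 15 of 27 were higher and 1 lower, and 10 stood below 5 in both groups. The cytosolic carbonic anhydrases Car3 and Car2 read 4.24, 4.03 and 3.99 in preadipocytes and 11.65, 11.46 and 11.72 in adipocytes and, for Car2, 4.46, 4.97 and 4.85 in preadipocytes and 9.75, 9.56 and 9.52 in adipocytes. They rose by 7.53 ± 0.17 and 4.85 ± 0.12. The glycerol channel Aqp7 read 3.61, 3.62 and 4.08 in preadipocytes and 8.00, 7.96 and 7.91 in adipocytes and rose by 4.18 ± 0.12, and the water channel Aqp1 read 10.59, 10.69 and 10.61 in preadipocytes and 7.16, 6.70 and 6.85 in adipocytes and fell, at -3.73 ± 0.11. The 2 channels thus moved in opposite directions without overlap. Glucose, lactate and amino acid carriers had 21 of 59 higher and 12 lower, with 24 below 5 in both groups. The proton-coupled amino acid carrier Slc36a2 read 4.79, 4.63 and 4.66 in preadipocytes and 9.91, 9.70 and 9.73 in adipocytes and rose by 5.08 ± 0.09, and the insulin-responsive glucose carrier Slc2a4 rose by 4.92 ± 0.23. The amino acid carrier Slc38a4 read 9.59, 9.75 and 9.54 in preadipocytes and 5.52, 5.67 and 5.31 in adipocytes and fell, at -4.13 ± 0.14. With the Actb difference as a covariate 12 of the 59 carriers were higher, and without dim probe sets 13 of 26.

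Mitochondrial carriers had 24 of 49 higher and 10 lower. Slc25a34 and Slc25a35, related carriers of uncertain substrate, rose by 4.48 ± 0.16 and 3.00 ± 0.15, and the pyrimidine nucleotide carrier Slc25a33 by 3.25 ± 0.17. The calcium-regulated carriers Slc25a24 and Slc25a12 were lower, at -3.46 ± 0.12 and -1.80 ± 0.08. Of the ABC transporters 19 of 45 were higher and 6 lower, and 15 stood below 5 in both groups. The sterol exporters Abcg1 and Abca1 rose by 5.79 ± 0.17 and 3.27 ± 0.15, and the drug pump Abcb1b was lower, at -2.28 ± 0.17. Abcg1 read 5.14, 5.03 and 5.80 in preadipocytes and 11.04, 11.29 and 11.01 in adipocytes. Potassium channels had 15 of 80 higher and 3 lower, with 62 below 5 in both groups, and without dim probe sets 2 of the 7 left were higher. The leak channel Kcnk3 stood out from them, reading 5.62, 5.43 and 5.71 in preadipocytes and 10.34, 10.33 and 9.87 in adipocytes, a rise of 4.59 ± 0.15. Among sodium, potassium and calcium pumps 5 of 30 were higher and 7 lower, and 13 stood below 5 in both groups. The sodium pump beta subunit Atp1b1 read 11.23, 11.04 and 10.95 in preadipocytes and 7.19, 7.13 and 7.17 in adipocytes and fell, at -3.91 ± 0.09. Its paralogue Atp1b3 rose by 1.08 ± 0.10, and the pump regulator Fxyd1 by 2.22 ± 0.08. Zinc carriers and metallothioneins had 6 of 28 higher and 7 lower, with 7 below 5 in both groups. The zinc importer Slc39a6 was at -3.15 ± 0.12.

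**Figure D4:**
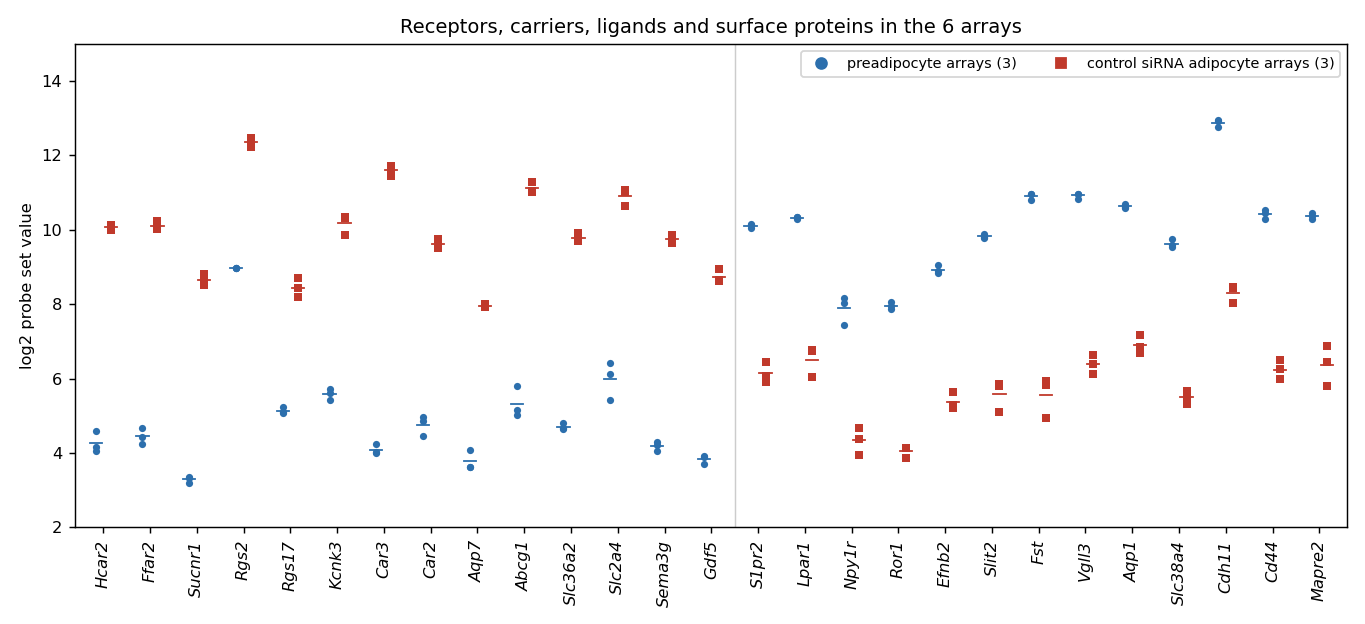
For each gene the 3 preadipocyte arrays (blue circles) and the 3 control siRNA adipocyte arrays (red squares) are plotted by their log2 probe set value, with a bar at the group mean. To the left of the grey line are genes that rose and to the right genes that fell, and in none of them do the groups overlap.

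Most of the matrix and adhesion genes that were called fell, with exceptions among laminins, integrins and junction proteins. Collagens had 15 of 42 lower and 5 higher, with 13 below 5 in both groups. Col1a1 was at -3.70 ± 0.28 and Col11a1 at -2.58 ± 0.18. The basement membrane, which coats every fat cell, had 8 of 24 lower and 4 higher. The laminin chain Lamb3 read 4.57, 3.88 and 4.25 in preadipocytes and 8.90, 8.73 and 8.41 in adipocytes and rose by 4.45 ± 0.17, and its paralogue Lamb2 was lower, at -1.65 ± 0.20. Integrins and focal adhesion genes had 22 of 42 lower and 9 higher. The laminin-binding integrins Itga7 and Itga6 rose by 3.62 ± 0.11 and 3.42 ± 0.13, and the fibronectin-binding Itga5 was lower, at -2.83 ± 0.22, with the adhesion proteins Tgfb1i1 (-2.81 ± 0.19) and Tns3 (-2.75 ± 0.11). Cadherins and catenins had 13 of 40 lower and 5 higher. The mesenchymal cadherin Cdh11 read 12.77, 12.94 and 12.92 in preadipocytes and 8.46, 8.03 and 8.43 in adipocytes and fell, at -4.57 ± 0.16. The protocadherins Pcdh18 and Pcdh7 were at -4.03 ± 0.18 and -3.95 ± 0.15, and the desmosomal Pkp2 rose by 2.11 ± 0.17. The list's median was 0.15, with 19 members below 5, and without dim probe sets it was -2.13. In gap and tight junctions 8 of 42 were higher and 3 lower, with 30 below 5 in both groups. The adhesion molecule F11r rose by 2.35 ± 0.17, and its relatives Jam3 and Jam2 were lower, at -2.65 ± 0.17 and -2.11 ± 0.11. Without preadipocyte replicate 2, 5 of the 42 were higher, and without dim probe sets 5 of 9. The proteoglycan list had 14 of 33 lower and 3 higher, and 9 stood below 5 in both groups. Cd44, the hyaluronan receptor, read 10.30, 10.52 and 10.44 in preadipocytes and 6.49, 5.98 and 6.24 in adipocytes and fell, at -4.18 ± 0.14, and the heparan sulfate enzymes Hs6st2 and Sulf2 were at -3.04 ± 0.17 and -2.51 ± 0.11.

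Most of the microtubule genes that were called fell. Of tubulins, kinesins and microtubule proteins 30 of 63 were lower, 20 by at least 2-fold, 13 were higher and 16 stood below 5 in both groups. The plus-end protein Mapre2 read 10.29, 10.37 and 10.46 in preadipocytes and 6.87, 5.79 and 6.45 in adipocytes and fell, at -4.01 ± 0.35, and the tubulin-binding Stmn1 was at -3.17 ± 0.23. The cargo kinesin Kif21a rose by 2.53 ± 0.12. Without dim probe sets 33 members were left, 19 of them lower. Caveolae, the membrane pits of which fat cells have very many, had 5 of 12 higher and 4 lower. The coat genes Cavin2, Cav2 and Cav1 rose by 2.66 ± 0.09, 2.12 ± 0.09 and 1.25 ± 0.07. The ATPases Ehd3 and Ehd4 and the coat gene Cavin3 were lower, at -0.83 ± 0.14, -0.53 ± 0.14 and -0.72 ± 0.10. Without preadipocyte replicate 3, or with the average over a gene's probe sets, 3 of the 12 were higher.

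Pairs of related genes, isoforms or paralogues, were set side by side for 28 pairs, of which 24 had both genes measured. Both genes were higher in 9 pairs, both lower in 1, the calls were opposite in 6 and 1 gene alone was called in 8. Levels of 2 probe sets are not compared. Hk2 read 8.39, 8.52 and 8.45 in preadipocytes and 11.58, 11.65 and 11.70 in adipocytes and rose by 3.19 ± 0.20, while Hk1, the hexokinase of wide expression, read 9.48, 9.53 and 9.36 in preadipocytes and 8.56, 8.53 and 8.22 in adipocytes and fell, at -1.02 ± 0.11. The mitochondrial aminotransferase Bcat2 read 7.83, 7.77 and 7.73 in preadipocytes and 9.91, 10.14 and 9.71 in adipocytes and rose by 2.14 ± 0.11, while the cytosolic Bcat1 read 8.35, 8.36 and 8.15 in preadipocytes and 4.96, 4.58 and 4.90 in adipocytes. Itga6 read 8.58, 8.24 and 7.96 in preadipocytes and 11.75, 11.61 and 11.69 in adipocytes, and Itga5 read 9.55, 9.45 and 9.19 in preadipocytes and 6.90, 6.66 and 6.13 in adipocytes. In these 3 pairs the groups lay apart in both genes. Ezh1, the methyltransferase form of resting cells, rose by 0.62 ± 0.10, and Ezh2, that of dividing cells, was at -0.68 ± 0.09. Lama5 rose by 0.91 ± 0.15, and Lama4 was at -0.39 ± 0.08. The call of Lama5 was lost with the Actb difference as a covariate, and that of Ezh1 with the average over a gene's probe sets. Sptlc3 (0.25 ± 0.09) and Sptlc2 (-0.27 ± 0.09) of serine palmitoyltransferase differed by small amounts. Their calls were lost when preadipocyte replicate 1 or 2, or control siRNA replicate 2 or 3, was left out. With a replicate block the call of Sptlc3 was lost too. With the Actb difference as a covariate 4 pairs had opposite calls. The count was 5 with quantile normalisation, a replicate block, or robust variances with a trend on intensity. It was also 5 without dim probe sets, without types x and s, and without any single preadipocyte or control siRNA array. Omission of PPAR gamma siRNA replicate 2 left 5 as well, and the average over a gene's probe sets gave 7. Among pairs that rose together, the insulin-responsive Slc2a4 rose by 4.92 ± 0.23 and the basal carrier Slc2a1 by 0.64 ± 0.20 (a call lost without preadipocyte replicate 1 or 2, or without control siRNA replicate 1 or 2), the acetyl-CoA carboxylases Acacb and Acaca by 2.44 ± 0.08 and 2.58 ± 0.12, and the lactate dehydrogenases Ldha and Ldhb by 2.41 ± 0.12 and 2.17 ± 0.13. Pde3b rose by 3.60 ± 0.08 while Pde3a, near the floor, was not called (-0.16 ± 0.10). Malic enzyme Me1 rose by 2.60 ± 0.12, and Me2 was not called (0.09 ± 0.11), although 2 of its other probe sets were called lower.

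**Figure D5:**
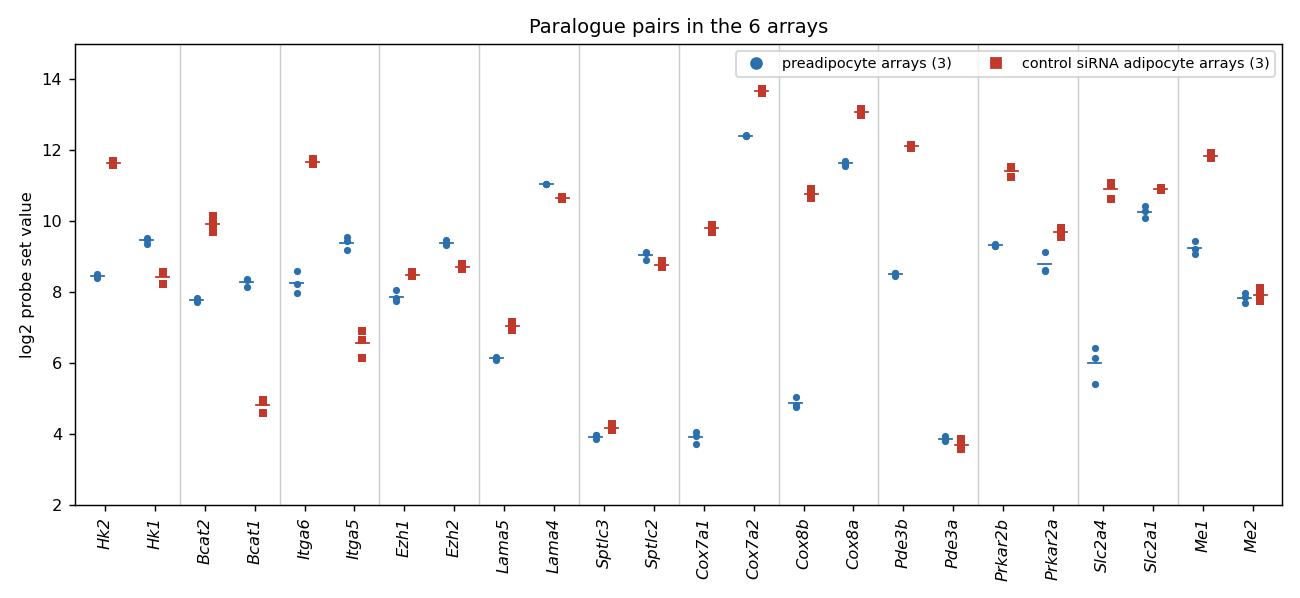
For 12 isoform pairs, divided by grey lines, the 3 preadipocyte arrays (blue circles) and the 3 control siRNA adipocyte arrays (red squares) are plotted by log2 probe set value, with a bar at the group mean. In the first 6 pairs 1 gene rose and the other fell, and in the pairs of Cox7a1 and Cox8b both genes rose.

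Among the rises ranked 11 to 30, the carboxylesterases Ces1f and Ces1d rose by 7.13 ± 0.10 and 6.07 ± 0.17, the acyltransferases Gpat3 and Dgat2 by 7.03 ± 0.11 and 6.55 ± 0.10, and the glycerol phosphate dehydrogenase Gpd1 by 7.49 ± 0.13. Probe sets of the carboxylesterase family can share signal, since its members are near-identical copies. Klb, the co-receptor for the hormone FGF21, read 4.90, 4.27 and 4.32 in preadipocytes and 10.86, 10.83 and 10.87 in adipocytes and rose by 6.36 ± 0.14. Ghrh, the gene of a hypothalamic releasing hormone, read 4.10, 4.33 and 4.17 in preadipocytes and 10.53, 10.48 and 10.17 in adipocytes and rose by 6.19 ± 0.20. Ddo, an oxidase of acidic D-amino acids, rose by 6.15 ± 0.11, and Cmbl, a hydrolase, by 6.71 ± 0.11. Vsir, a checkpoint protein of immune cells, read 3.61, 3.65 and 3.42 in preadipocytes and 9.55, 9.75 and 9.83 in adipocytes and rose by 6.15 ± 0.10. Of the 10 macrophage markers 2 rose, and their summed level was 8.25 to 8.34 in preadipocytes and 8.48 to 8.54 in adipocytes. Their part in the value of Vsir was not tested. The secreted Apoc1, Itih4 and Retn (resistin) rose by 6.61 ± 0.10, 6.60 ± 0.09 and 7.16 ± 0.11. Each of the genes given here with array values went from below 5 to above 9 with no overlap.

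Among the falls ranked 11 to 30, the transcription factors Osr1 and Osr2 were at -4.83 ± 0.12 and -5.09 ± 0.20, and the chromatin remodeller Smarca1 at -4.77 ± 0.19. Osr2 read 9.66, 9.39 and 9.26 in preadipocytes and 4.07, 4.68 and 4.29 in adipocytes. The secreted matrix genes Fbln7, Matn4 and Mmp3 were at -5.30 ± 0.11, -4.80 ± 0.21 and -4.88 ± 0.14, and the decoy chemokine receptor Ackr3 at -4.75 ± 0.12. Cyp7b1, an oxysterol hydroxylase, read 10.31, 10.36 and 10.39 in preadipocytes and 5.31, 5.24 and 5.29 in adipocytes and fell, at -5.07 ± 0.09. Aebp1, a collagen-binding protein of fibroblasts, was at -4.71 ± 0.16. The small GTPase Gem read 9.15, 9.42 and 9.35 in preadipocytes and 3.96, 4.36 and 4.59 in adipocytes, and the cytoskeletal proteins Dpysl3 and Gas7 were at -5.04 ± 0.20 and -4.86 ± 0.35. Here too the adipocyte arrays lay below all preadipocyte arrays.

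Counted as switches, with a group mean below 5 on one side and at least 9 on the other, were 52 genes that came on and 14 that went off. Of these, 9 and 1 stood in the lists above: Car2, Car3, Cox7a1, Cox8b, Ffar2, Ffar4, Hcar2, Sema3g and Slc36a2 came on, and Cxcl5 went off. Ffar4, a receptor for long-chain fatty acids, is named here for this count, after its values were seen. For comparison, 11134 genes had a mean of at least 5 in preadipocytes and 11292 in adipocytes.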

How the data were processed

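RNA of 9 samples, 3 a group, was hybridised to single-colour arrays. The values are log2 probe set summaries made and deposited by the authors. The submitters' processing notes name MAS5, RMA and the package affy 1.16.0 without saying which step each served, and the background correction and normalisation were not repeated. Of the probe sets, 64 controls were left out and 45037 were fitted with limma 3.58.1 in R 4.3.3, with a mean for each of the 3 groups, empirical Bayes variances and Benjamini-Hochberg adjustment over all of them. The script was tested on simulated data. Platform annotation gave 1 symbol to 34945 probe sets, several to 932 and none to 9160, and genes were named only from the first kind. The number of arrays limits the precision.

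The comparison, the gene lists and the isoform pairs were chosen with earlier results of these data known. Named genes were taken from up to 3 rises and up to 3 falls of largest size per list among called genes without overlap. Also eligible were all members of lists of at most 10 genes, all genes of the pairs, ranks 11 to 30 in each direction and Pparg. Not every eligible gene is named, and the choice among them followed no stated rule, so the largest change of a list may be missing. Of the list entries 114 had no match. The result of 1 list is not reported here. Promoter sequences came from RefSeq.

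Alternatives were quantile normalisation, median centring, omission of dim probe sets and of types x and s, the 6 arrays alone, robust variances with a trend on intensity, an average over each gene's probe sets, a replicate block, the Actb difference as a covariate, a test against 1.2-fold, and omission of each array.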

Additional observations from a re-analysis of the deposited data

How the results depend on the processing

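The count of genes lower stayed within 1.5 times of 4495 in every alternative run. That of genes higher stayed within 1.5 times of 4932 in all but the test against 1.2-fold. This test left 2844 higher and 3293 lower because it asks for a larger difference. Adding the Actb difference as a covariate left 3365 and 3877, omission of dim probe sets 3374 and 3891, and omission of each array 4119 to 4988 and 4098 to 4526. The labels do not say that a replicate number pairs arrays, so the main fit had no block. Same-numbered arrays of the groups correlated in their deviations at 0.097, 0.0088 and 0.036. Differently numbered arrays correlated at -0.11 to 0.083. With the replicate number as a block 4769 genes were higher and 4430 lower, and among the 299 named genes the call of Sptlc3 alone was lost. The number of lists with most members higher ranged from 20 to 29, that of pairs with opposite calls from 4 to 7 and that of switch genes from 54 to 70.

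Besides the 9 changes of sign given next, the medians of 64 of the 80 lists moved by more than the spread between arrays in at least 1 alternative: 36 without dim probe sets, 31 with the Actb difference, 26 with the mean of all probe sets, 18 with quantile normalisation, 10 without types x and s, and 1 to 5 when an array of either group was left out. For 9 lists whose median exceeded that spread it changed sign. Without dim probe sets those of the Hox genes, receptors, semaphorins and cadherins were -0.23, -0.26, -0.39 and -2.13. With the Actb difference those of autophagy and of syndecans and heparan sulfate enzymes were -0.0329 and 0.0434, with the mean of all probe sets those of the basement membrane and caveolae were 0.0032 and -0.0336, and with quantile normalisation that of deacetylases and sirtuins was 0.0143. Me2, not called, was at -0.24 with the mean of all probe sets. Of the named genes 12 lost their call in some alternative, 11 of them with the Actb difference. Fits without dim probe sets hold fewer genes per list, and for the other alternatives the cause was not tested.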
